A study of Homo sapiens with 2 samples.

Results

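The MAGE genes and PRAME encode tumour antigens and their relatives, and 5 of them were described here in Huh7, a human hepatoma cell line, with and without knockdown of the repressor E2F6. They were the genes named MAGEF1, MAGEB2, MAGED2, PRAME and MAGED1, 5 of the 21225 genes analysed, found by gene name in both tables. MAGEH1 was also looked for and is not analysed here. The names were chosen with the measured values of these same libraries in view, so the members' differences are given as a description. The study held 1 RNA-seq library of Huh7 cells given a control shRNA and 1 of Huh7 cells given an shRNA against E2F6. The labels give neither the shRNA sequence nor how and for how long it was present, and they do not say whether single clones or pools of cells were used. With 1 library per group there is no replicate spread and no test between conditions, so every difference is one between these 2 libraries.

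MAGE proteins share a conserved domain through which many of them bind RING-type ubiquitin ligases and steer these to particular targets. Type I genes (MAGEA, MAGEB and MAGEC, on chromosome X) are cancer-testis antigens, normally restricted to germ cells, silenced elsewhere largely by DNA methylation and switched on in many tumours. Type II genes, such as MAGED1, MAGED2 and MAGEF1, are active in many normal tissues. PRAME, another tumour antigen expressed in testis, is a leucine-rich repeat protein that serves as a substrate receptor of a cullin 2 ubiquitin ligase and is known as a repressor of retinoic acid receptor signalling. E2F6 belongs to the E2F family, lacks the activation domain of its relatives, and represses a set of germ cell genes as part of a polycomb complex.

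Levels are in FPKM, which corrects fragment counts for the length of the transcript and the size of the library. A difference is log2(FPKM + 1) with the E2F6 shRNA minus log2(FPKM + 1) with the control shRNA, and paired values are given in the order control, E2F6 shRNA. A gene was counted as past the rule of size when this difference was at least 1 in size and the mean of the libraries at least 1 FPKM. Ratios are of the FPKM values themselves, with 95% intervals that cover counting error only. Each library was scaled to an implied total of 17139209 (control) or 14724835 (E2F6 shRNA) fragments. E2F6 itself was at 2.54 and 0.997 FPKM, so 39.3% of its control level was left (25.8 to 59.3%). Its difference of -0.82 was short of the rule, since adding 1 to the FPKM shrinks the differences of genes at low levels. All 13 hepatoma markers averaged at least 1 FPKM, with AFP (alpha-fetoprotein) at 1721 and 1064 FPKM. Of these, HNF4A was higher by the rule (4.56 and 15.3 FPKM), and ALB (173 and 77.6 FPKM) and APOB (318 and 138 FPKM) were lower, though ALB was short of the rule after correction for GC content, at -0.83. Of 10 markers of blood, endothelial and stromal cells 4 were measured, with summed levels of 22.1 and 39.7 FPKM, mostly COL1A1 at 20.1 and 36.7 FPKM. PECAM1 was at 1.53 and 2.83 FPKM, CD14 and ACTA2 were below 1 FPKM in both libraries, ACTA2 being listed at 0 in the control, and PTPRC, CD3E, VWF, CDH5 and DCN were not analysed here. The part of such cells in the members' values was not tested. In a library made from many cells, fewer cells with a transcript and less of it per cell cannot be told apart.

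Among the members 1 was past the rule, MAGEF1 on the lower side, and none on the higher side. Over all 11574 genes averaging at least 1 FPKM, 2.06% were lower and 1.17% higher by that rule, 3.23% in either direction. Nothing about the members is read from these shares, since the members were chosen on this comparison. The other 3 members above 1 FPKM, MAGEB2, MAGED2 and PRAME, had differences between -0.24 and 0.47, and MAGED1 was listed at or near 0 in both libraries.

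MAGEF1 (ENSG00000177383, chromosome 3) encodes a MAGE protein that pairs with the ubiquitin ligase NSMCE1 and directs it against MMS19, a factor that loads iron-sulfur clusters onto DNA repair and replication enzymes. It was at 44.4 FPKM with the control shRNA (42.0 to 47.0 by counting error) and at 13.2 FPKM with the E2F6 shRNA (11.8 to 14.7). The control library was thus the high one, and the counting intervals of the libraries did not overlap. The level was 3.37-fold lower with the E2F6 shRNA (interval 2.97 to 3.82), a difference of -1.68 on the log2(FPKM + 1) scale. Only 31 of the 11574 genes had a lower difference. MAGEF1 has 1 annotated transcript of 1636 bases in 1 exon, and its FPKM values correspond to 1246 and 318 fragments, whole numbers to within 0.01 of a fragment. No exon of another annotated gene overlaps it, and none of its 1587 windows of 50 bases occurs in a transcript of another gene.

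The promoter of MAGEF1 is shown because it belongs to the member that differed most, with letters from RefSeq (build GRCh38.p14, chr3:184712015-184712314, minus strand), running from 250 bases before the transcription start to 50 after it. Capitals mark CCGGAA, a spelling found in sites for ETS factors, which begins 56 and 2 bases before the start. Other spellings of such sites were not searched for.
MAGEF1: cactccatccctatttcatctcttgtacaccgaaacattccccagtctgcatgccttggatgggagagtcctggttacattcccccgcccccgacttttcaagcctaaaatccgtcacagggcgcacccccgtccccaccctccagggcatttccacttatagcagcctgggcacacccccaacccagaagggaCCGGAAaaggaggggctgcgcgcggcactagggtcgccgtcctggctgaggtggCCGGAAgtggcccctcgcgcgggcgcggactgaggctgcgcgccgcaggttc
Neither GCGGGA, a core of E2F sites, nor the E-box CACGTG, which the MGA and MAX partners of E2F6 can bind, was found in this window on either strand. GCGGGA or its reverse complement is present in 26.9% of the 35116 RefSeq promoter windows of this length, CACGTG in 7.26% and CCGGAA or its reverse complement in 17.2%. These matches are letters in a window, not sites shown to be bound. The window holds 21 CpG dinucleotides, against a median of 14 over all promoter windows.

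**Figure D1:**
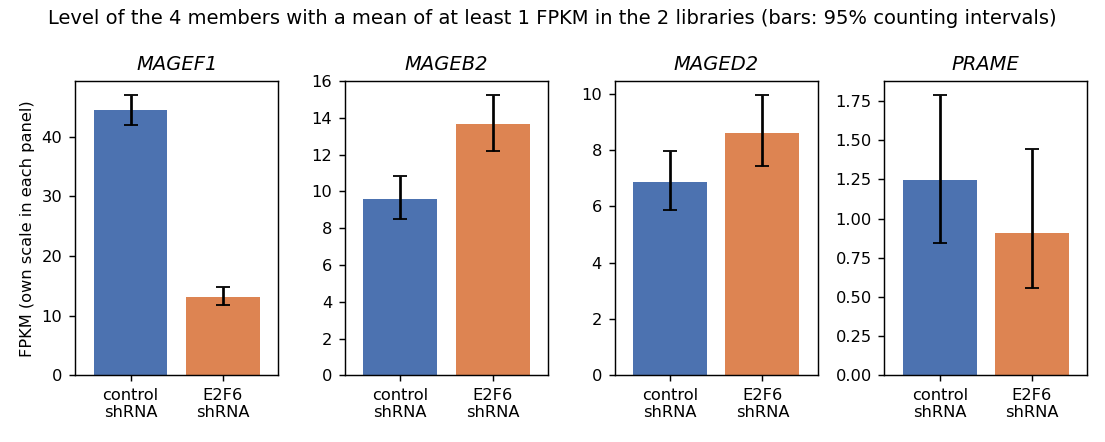
Level (FPKM, vertical axis, own scale from 0 in each panel) of the 4 members with a mean of at least 1 FPKM in the control shRNA library (blue) and the E2F6 shRNA library (orange), 1 library each, with 95% counting intervals as error bars. MAGEF1 is at 44.4 and 13.2 FPKM with intervals far apart, while the intervals of PRAME overlap over most of their length.

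MAGEB2 (ENSG00000099399, chromosome X) had the highest level in these cells among the type I MAGE genes with values. Its protein is known to hold back translation of the stress granule protein G3BP1. It was at 9.60 FPKM with the control shRNA (8.48 to 10.8) and at 13.7 FPKM with the E2F6 shRNA (12.2 to 15.2). The E2F6 shRNA library was the high one, and the counting intervals did not overlap. The ratio was 1.42 (1.21 to 1.68) and the difference of 0.47 stayed short of the rule. The gene has 1 annotated transcript of 1610 bases, the values correspond to 265 and 324 fragments, and none of its windows of 50 bases is shared with another gene. Its promoter is shown because its level was the highest among the type I genes with values (chrX:30215313-30215612, plus strand, same source and extent).
MAGEB2: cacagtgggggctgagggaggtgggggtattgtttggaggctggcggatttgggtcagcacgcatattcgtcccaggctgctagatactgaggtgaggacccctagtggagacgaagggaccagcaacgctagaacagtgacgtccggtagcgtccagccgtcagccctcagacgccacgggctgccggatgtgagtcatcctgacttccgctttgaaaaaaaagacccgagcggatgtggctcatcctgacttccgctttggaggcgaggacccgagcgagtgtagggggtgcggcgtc
It has no capitals, since none of the 3 motifs above was found in it on either strand, and it holds 21 CpG dinucleotides.

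The genes beside MAGEB2 on chromosome X were at far lower levels. MAGEB3, the next gene on one side, was at 0.0340 FPKM in the control library and listed at 0 in the E2F6 shRNA library. On the other side IL1RAPL1, a synaptic receptor gene, was at 0.0387 and 0.105 FPKM. MAGEB1, also a type I gene of this family, was at 0.658 and 0.333 FPKM, a ratio of 0.506 whose interval of 0.210 to 1.20 includes 1. MAGEB2 thus stood above 9 FPKM in both libraries beside neighbours below 1 FPKM.

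MAGED2 (ENSG00000102316, chromosome X), a type II gene whose loss causes a transient prenatal form of Bartter syndrome, a salt-wasting kidney disorder, was at 6.86 FPKM with the control shRNA and at 8.61 FPKM with the E2F6 shRNA. The second library was the higher one, and the counting intervals, 5.87 to 7.96 and 7.44 to 9.96 FPKM, overlapped. The ratio was 1.25, with an interval of 1.02 to 1.56 that only just leaves out 1, and the difference of 0.29 was short of the rule. The gene has 13 annotated transcripts, so its fragments, about 173 and 187, are estimates from the mean transcript length. Taking the longest transcript instead gave 257 and 277 fragments and an interval of 1.05 to 1.49. Of its windows of 50 bases 1.62% also occur in TRO, a neighbouring relative of MAGED2.

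RefSeq lists a pair of starts for MAGED2, and the second is shown because it holds the E2F core (chrX:54808096-54808395, plus strand, same extent). Capitals mark GCGGGA, beginning 8 bases before the start, and TTCCGG, the reverse complement of CCGGAA, beginning at base 3 of the transcript.
MAGED2: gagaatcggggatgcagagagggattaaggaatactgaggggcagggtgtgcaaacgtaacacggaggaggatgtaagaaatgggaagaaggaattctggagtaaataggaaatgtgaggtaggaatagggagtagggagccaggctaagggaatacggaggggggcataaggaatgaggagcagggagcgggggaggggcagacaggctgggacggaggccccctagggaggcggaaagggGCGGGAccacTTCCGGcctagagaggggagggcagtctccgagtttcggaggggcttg

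PRAME (ENSG00000185686, chromosome 22) was at 1.25 FPKM with the control shRNA (0.845 to 1.79) and at 0.905 FPKM with the E2F6 shRNA (0.556 to 1.44). The values were close and their intervals overlapped. The ratio was 0.725, with an interval of 0.392 to 1.35 that includes 1, and the difference was -0.24. A change in PRAME was not detectable at this depth, with about 30 and 19 fragments. Counted over the longest of its 14 transcripts, 61 and 38 fragments gave 0.470 to 1.10, which still includes 1. An antisense RNA gene covers 0.503% of its exon bases, and whether reads were assigned by strand is not given in the sources used here. The neighbouring gene ZNF280A, 27 kb away, was at 0.326 and 0.917 FPKM. RSPH14, 500 kb away on the other side, was at 0.211 FPKM and listed at 0. Of 3 RefSeq starts of PRAME none holds GCGGGA or CACGTG within its window, and the first holds TTCCGG beginning 20 bases before the start.

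MAGED1 (ENSG00000179222, chromosome X), an adaptor of the p75 neurotrophin receptor that is active in many tissues, was listed at 0 with the control shRNA and at 0.0250 FPKM with the E2F6 shRNA. The second value is what 1 fragment gives over a transcript of 2.71 kb, within the range of the 10 annotated transcripts, whose longest is 5.418 kb. A count of 0 over that length allows up to 0.0646 FPKM in the control library, on the basis of 3 fragments, so no ratio is given. An exact 0 in such a table can also be a failed estimate. Protein-coding genes named like those of the ribosome, proteasome, respiratory chain, translation initiation and RNA polymerase II numbered 268. Of these, 1 was listed at 0 in the control library and none in the E2F6 shRNA library. They were picked by name alone, so genes of other roles can be among them, and 12 averaged below 1 FPKM. The neighbour GSPT2, a translation release factor gene 57 kb away, was at 0.0416 FPKM and listed at 0. FAM156B, 989 kb away on the other side, was at 1.93 and 1.54 FPKM, an uncertain value since it has a near-identical copy. MAGED1 has a pair of starts in RefSeq, and the second is shown because it holds the E2F core in 2 places, in a gene listed at or near 0 in both libraries (chrX:51893373-51893672, plus strand). Capitals mark GCGGGA, beginning 158 and 91 bases before the start.
MAGED1: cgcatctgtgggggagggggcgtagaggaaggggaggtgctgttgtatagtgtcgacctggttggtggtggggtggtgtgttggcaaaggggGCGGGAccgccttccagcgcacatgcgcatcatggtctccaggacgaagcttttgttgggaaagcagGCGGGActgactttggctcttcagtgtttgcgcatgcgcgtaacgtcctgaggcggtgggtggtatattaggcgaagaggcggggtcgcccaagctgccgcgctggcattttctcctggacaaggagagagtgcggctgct

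In the control library the order of the levels was MAGEF1, MAGEB2, MAGED2, PRAME and MAGED1, and no neighbouring pair had overlapping counting intervals among the first 4. In the E2F6 shRNA library MAGEB2 at 13.7 FPKM and MAGEF1 at 13.2 FPKM headed the order, with overlapping intervals of 12.2 to 15.2 and 11.8 to 14.7 FPKM. Of the summed FPKM of the 15 MAGE genes with values, MAGEF1 made up 66.4% in the control library and 29.8% in the E2F6 shRNA library. The share of MAGEB2 was 14.4% and 30.9%, that of MAGED2 10.3% and 19.4%, and that of NSMCE3 7.11% and 16.0%. The sum itself was 66.9 and 44.3 FPKM, so a lower MAGEF1 by itself raises the other shares. The FPKM ratios of MAGEB2, MAGED2 and NSMCE3 were 1.42, 1.25 and 1.49.

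**Figure D2:**
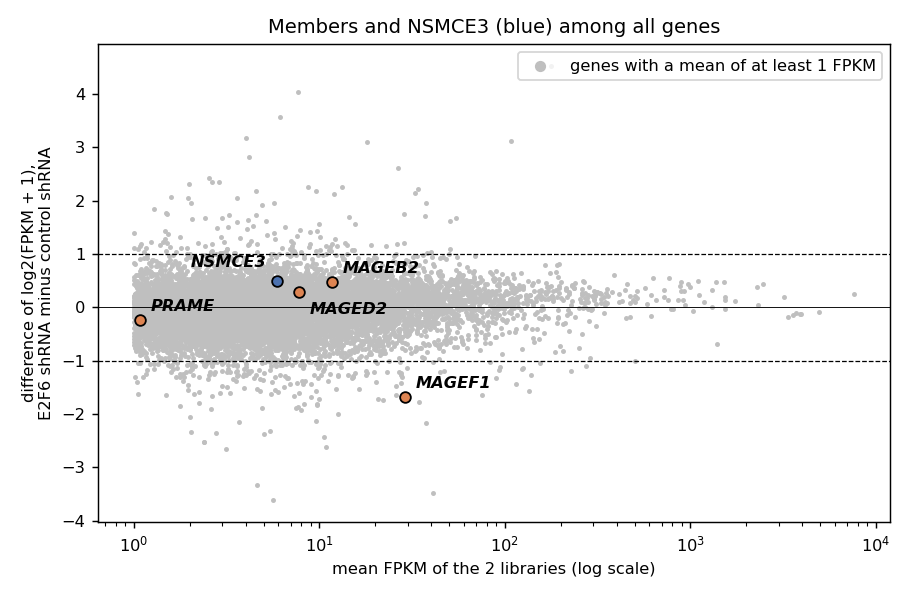
Difference of log2(FPKM + 1), E2F6 shRNA minus control (vertical axis), against the mean FPKM of the 2 libraries (log axis) for 11574 genes in grey, with 4 members in orange, NSMCE3 in blue and dashed lines at the rule of size. MAGEF1 lies below the lower line at -1.68, and MAGEB2, MAGED2, PRAME and NSMCE3 lie between the lines.

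The remaining MAGE genes with values were low apart from NSMCE3. Of 25 further type I genes looked for, 10 had values, and of 8 other type II genes only 1, NSMCE3. NSMCE3, also called MAGEG1, is the MAGE subunit of the SMC5/6 complex and, like MAGEF1, a partner of NSMCE1. It was at 4.76 and 7.07 FPKM, a ratio of 1.49 (1.3 to 1.70), short of the rule at 0.49. MAGEF1 and NSMCE3 lay on opposite sides of 1. Under the alternatives that can change a gene's difference, that of NSMCE3 ranged from 0.49 to 0.76. The 10 type I genes with values other than MAGEB2 were all at a mean below 1 FPKM, with medians of 0.0339 and 0.110 FPKM. Of these, 6 had a higher value in the E2F6 shRNA library and 4 a lower one, on 36 and 42 estimated fragments in all. MAGEA8 was the only one of them whose interval left out 1, at 0.176 and 0.724 FPKM on 5 and 16 fragments, a ratio of 4.11 (1.3 to 13.0). MAGEC2 was listed at 0 and at 0.102 FPKM, the latter on 3 fragments. MAGEA9 and MAGEA9B, at 0.0322 and 0.150 FPKM and at 0.0339 and 0.118 FPKM, share 94.0% of the windows of MAGEA9, so how the reads were split over the pair is uncertain, as it is for MAGEA3 and MAGEA6.

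**Figure D3:**
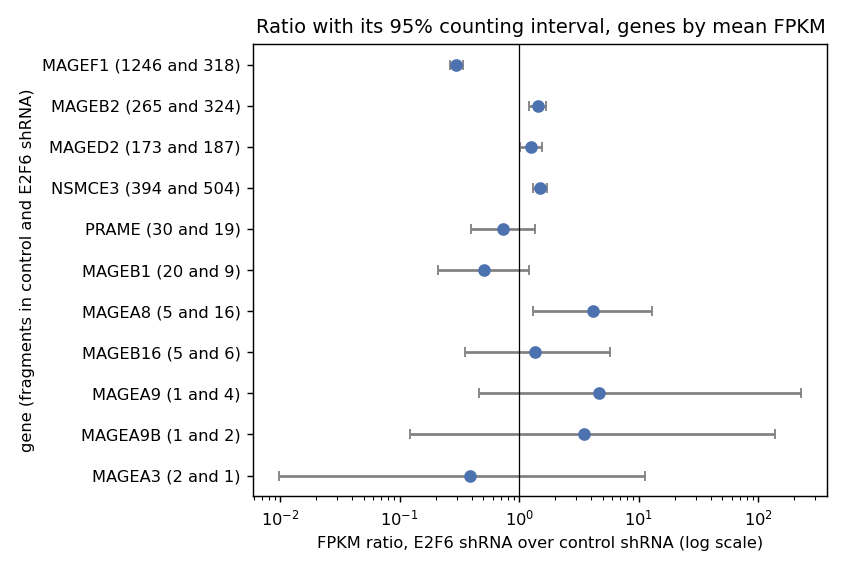
FPKM ratio of the E2F6 shRNA to the control library (log axis) with its 95% counting interval for PRAME and 10 MAGE genes with at least 1 fragment in each library, ordered by mean FPKM, with fragments in parentheses. MAGEF1 lies left of 1, MAGEB2, MAGED2, NSMCE3 and MAGEA8 right of it, and the other intervals include 1.

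The known partners of MAGEF1 and NSMCE3 were within the rule. NSMCE1, the shared ubiquitin ligase, was at 2.32 and 2.64 FPKM (ratio 1.13, 0.671 to 2.02), and MMS19 was at 6.60 and 8.57 FPKM (ratio 1.3, 1.06 to 1.59). Of 9 cytosolic iron-sulfur assembly genes 8 were at a mean of 1 FPKM or more and none passed the rule, with a median difference of 0.26 against -0.0021 over all genes. NUBP1, a scaffold of the early assembly step, had the highest difference, 0.51, at 7.22 and 10.7 FPKM. NDOR1, an electron donor of the pathway, had the lowest, -0.15, at 4.28 and 3.77 FPKM. None of 9 iron-sulfur enzymes that MMS19 serves passed it either (median 0.047), and the helicase genes ERCC2 (7.0 and 9.21 FPKM) and BRIP1 (2.64 and 1.62 FPKM) had the highest and the lowest difference, 0.35 and -0.48. Of 9 SMC5/6 complex genes 7 were at 1 FPKM or more and none passed the rule (median -0.19). Their ATPase cores SMC5, at 18.1 and 9.58 FPKM, and SMC6, at 2.76 and 1.27 FPKM, had the lowest differences, -0.85 and -0.73. Transcripts of these 7 genes had a median GC content of 42.3%, and the GC-corrected differences of SMC5 and SMC6 were -0.35 and -0.42.

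Of 8 ubiquitin ligases and regulators that work with MAGE proteins, NSMCE1 again among them, 6 were at 1 FPKM or more and none passed the rule (median 0.087). DCAF12, a receptor that sends some MAGEA proteins to degradation, had the highest difference, 0.32, at 20.7 and 26.1 FPKM, and the deubiquitinase gene USP7 the lowest, -0.38, at 12.6 and 9.49 FPKM. TRIM28, the partner of several type I proteins, was at 32.8 and 35.8 FPKM. PJA1, a ligase that binds MAGED1, was at 0.0286 FPKM with the control shRNA and listed at 0 with the E2F6 shRNA. Of 11 p75 receptor and MAGED1 partner genes 6 were measured and 3 were at 1 FPKM or more, none past the rule (median -0.58). SORT1 (sortilin), a co-receptor of p75, had the lowest difference, -0.95, at 8.67 and 3.99 FPKM, and NGFRAP1 the highest, 0.16, at 36.5 and 40.9 FPKM.

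Among 9 genes of the cullin 2 ligase and its receptors, PRAME's own machinery, none passed the rule (median 0.18). CUL2 itself had the lowest difference, -0.59, at 5.49 and 3.32 FPKM, and the receptor gene KLHDC3 the highest, 0.78, at 30.3 and 52.6 FPKM. Corrected for GC content, CUL2 was at -0.20 and KLHDC3 at 0.63. Among 14 retinoic acid receptor and target genes 13 were measured, 10 at 1 FPKM or more, with 1 lower by the rule, 0 higher and a median of -0.30. The lower one was TGM2, a transglutaminase gene induced by retinoic acid, at 24.8 and 7.97 FPKM, 3.12-fold lower (2.74 to 3.58). CYP26B1, which degrades retinoic acid, was at 9.02 and 4.89 FPKM, short of the rule at -0.77. The LRR relative of PRAME, LRRC14, was at 1.46 and 1.85 FPKM and the only gene of 23 in the PRAME family list with values here. Of 8 stress granule genes around MAGEB2 none passed the rule (median -0.16), with G3BP1 at 19.7 and 16.9 FPKM. CAPRIN1 had the lowest difference there, -0.50, at 19.9 and 13.8 FPKM, and USP10 the highest, 0.0011, at 9.58 and 9.59 FPKM.

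**Figure D4:**
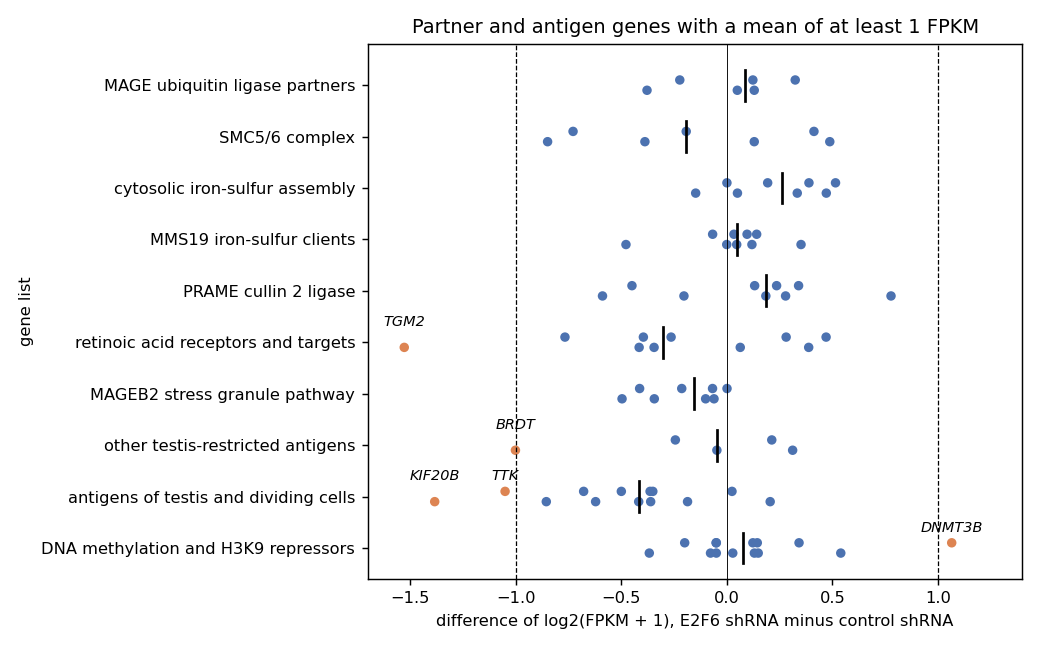
Difference of log2(FPKM + 1), E2F6 shRNA minus control (horizontal axis), for genes of 10 lists with a mean of at least 1 FPKM, 1 point per gene, black bars at list medians and dashed lines at the rule of size, with genes past it in orange and named. TGM2, BRDT, KIF20B and TTK lie on the lower side and DNMT3B on the higher side.

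The other tumour antigens of the testis that were past the rule lay on its lower side. Among all genes, 239 of the 374 past the rule did so. Of 50 testis-restricted antigen genes 9 were measured and 5 were at 1 FPKM or more, 1 lower by the rule and 0 higher (median -0.047). The lower one was the bromodomain gene BRDT, which was at 7.10 and 3.05 FPKM, at the edge of the rule with -1.0, and at -0.81 after correction for GC content. CT83, an antigen of lung and breast tumours, had the highest difference, 0.31, at 4.90 and 6.32 FPKM (ratio 1.29, 0.849 to 1.97), and DPPA2 was at 2.40 and 2.95 FPKM. SPANXB1, an antigen gene of chromosome X, was listed at 0 and at 1.01 FPKM, about 7 fragments, with a mean below 1 FPKM, and its value is uncertain because the SPANX genes are nearly identical copies. Of 16 antigen genes shared by testis and dividing cells 13 were at 1 FPKM or more, 2 lower by the rule and 0 higher (median -0.42). They were the mitotic kinesin gene KIF20B at 5.59 and 1.53 FPKM and the mitotic checkpoint kinase gene TTK at 9.45 and 4.05 FPKM. Transcripts of the 13 had a median GC content of 41.8%, and both genes were short of the rule when corrected for it, at -0.86 and -0.62.

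Of 14 genes of DNA methylation and H3K9 repression, the machinery that silences type I MAGE genes in most tissues, 1 was higher by the rule and 0 lower (median 0.076). DNMT3B, a de novo DNA methyltransferase gene, was at 6.98 and 15.7 FPKM, 2.25-fold higher (2.0 to 2.53), and at 0.92, short of the rule, after correction for GC content. UHRF1, which guides maintenance methylation, was at 4.46 and 6.94 FPKM, DNMT1 at 10.7 and 10.9 FPKM and DNMT3A, with the lowest difference, at 3.96 and 2.84 FPKM. Among 14 genes of the E2F6 polycomb complex, the knocked-down E2F6 included, 13 were at 1 FPKM or more, with 1 lower by the rule, 0 higher and a median of -0.28. The lower one was TFDP1, the dimer partner of E2F proteins, at 22.0 and 8.31 FPKM. MGA, the scaffold of the complex, was at 3.09 and 2.38 FPKM and L3MBTL2 had the highest difference, 0.35, at 5.48 and 7.27 FPKM. Transcripts of the 13 had a median GC content of 46.7%. Corrected for GC content, TFDP1 was at -1.45, while MGA moved from -0.28 to -0.025 and L3MBTL2 to 0.20. None of 15 housekeeping genes passed the rule (median 0.14).

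MAGED1, MAGED2 and MAGEB2 lie on chromosome X, where 300 protein-coding genes averaged at least 1 FPKM, 6 of them lower by the rule, 0 higher, with a median of -0.052. Of all 9904 protein-coding genes at that level, 199 were lower and 115 higher. Nothing about chromosome X is read from these counts. The differences of MAGEB2 and MAGED2 lay above the median of the chromosome X genes and above that of all genes. Across the 2 libraries the protein-coding genes with values nearest to those of MAGEF1 on the log2(FPKM + 1) scale were the complement gene C5 at 40.6 and 14.6 FPKM (distance 0.19) and the membrane protein gene STOM at 38.4 and 13.2 FPKM (distance 0.20). For MAGEB2 they were POMGNT2 and IQGAP3, for MAGED2 SLC27A4 and MAFK, and for PRAME TMCO4 and ZNF165, all within a distance of 0.0191. For MAGED1, 1 fragment in 1 library, they were BCAN and DMBX1, also listed at 0 in the control library. With 1 value per condition, likeness means only a like pair of levels. The genes beside MAGEF1 on chromosome 3 were EPHB3, a receptor kinase gene, at 0.168 and 0.378 FPKM and VPS8, an endosomal tethering gene, at 1.59 and 1.35 FPKM, neither past the rule.

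Differences went with the GC content of transcripts. With protein-coding genes ordered by GC content in 10 bins of 990, the median difference ran from -0.39 in the lowest bin to 0.17 in the next to highest and 0.16 in the highest. MAGEF1, at 52.9% GC, lay where the trend was 0.13, opposite in sign to its own difference, and was at -1.80 after correction. MAGEB2, at 46.1% GC, lay where the trend was -0.070 and moved to 0.54. MAGED2 at 54.4% moved to 0.15, about the size of the trend there, and PRAME at 54.7% to -0.38. The part of GC content in the members' differences was not tested beyond this correction.

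**Figure D5:**
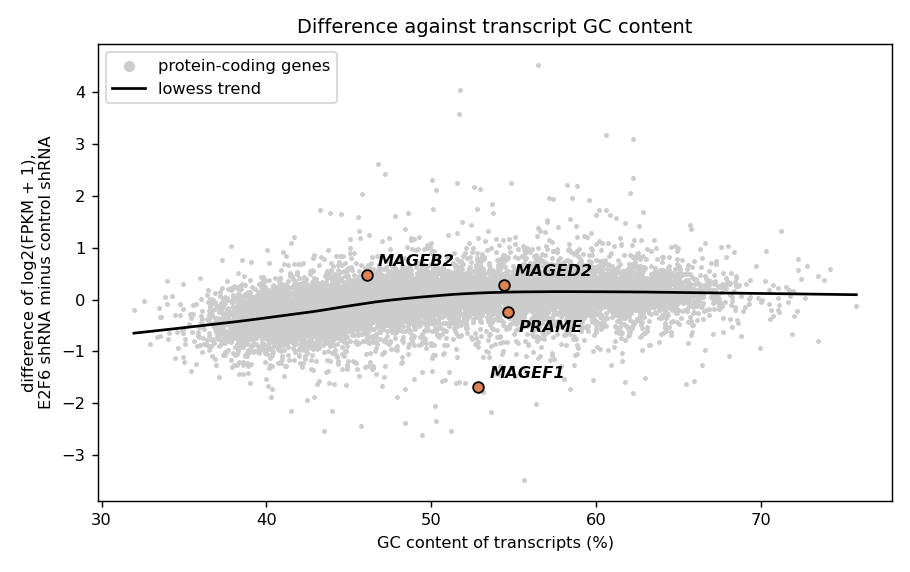
Difference of log2(FPKM + 1), E2F6 shRNA minus control (vertical axis), against transcript GC content in percent for 9900 protein-coding genes in grey, with the lowess trend in black and 4 members in orange. MAGEF1 lies 1.80 below the trend and MAGEB2 0.54 above it.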

How the data were processed

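RNA from Huh7 cells was sequenced as 1 control shRNA and 1 E2F6 shRNA library. The authors deposited 1 table of FPKM values per library. Per the submitters' processing notes, HISAT2 2.0.4, StringTie 1.3.0 and GRCh37 were used. Which annotation release, read length or strand setting was used is not given in the sources used here. Of 21227 rows per table, 2 were dropped, TGFB1 without a value and a row of spilled text. Of 21225 gene IDs, 21059 were found in GENCODE release 29 (GRCh38), used for biotype, transcript length, GC content and gene order.

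Fragments came from the values. For genes with 1 transcript, FPKM times length was whole to within 0.01 of a fragment in 97.95% of 5452 and 5162 values, at 0.0583 and 0.0679 FPKM for 1 fragment per kilobase. Genes with several transcripts were given their mean length, so their fragments are estimates. Intervals are exact conditional binomial for ratios and exact Poisson for levels, and cover counting error only, since reads are not independent molecules. No count model was used, as a gene's length in the authors' annotation was not known for most genes.

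Members and 18 lists (262 genes, 164 analysed, 3 in more than 1 list) were chosen with earlier results of these data known. Genes named were the members, E2F6, list genes past the rule of size, the highest and lowest of each list, the 2 nearest genes by level and the chromosome neighbours, and any gene of lists with fewer than 12 measured genes. Some genes this rule names are not reported here. Others were chosen after their values were seen, among them UHRF1, DNMT1, MGA, CYP26B1 and AFP. Chromosome neighbours are the nearest protein-coding genes with values on each side, so genes without values were passed over. Tables were handled in pandas 2.3.3 under Python 3.11.15, intervals came from scipy 1.17.1, the GC trend from statsmodels 0.14.6 (lowess span 0.3) and figures from matplotlib 3.10.9.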

Additional observations from a re-analysis of the deposited data

How the results depend on the processing

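Under all 9 alternatives listed at the outset MAGEF1 was the 1 member past the rule and none was higher. Its difference ranged from -1.80 to -1.67, that of MAGEB2 from 0.47 to 0.54, that of MAGED2 from 0.15 to 0.32 and that of PRAME from -0.42 to -0.16. MAGED1, about 1 fragment in 1 library, ranged from -0.094 with the GC correction to 0.32 with a pseudocount of 0.1. No minimum, a minimum of 5 FPKM, the threshold of 1.5-fold and protein-coding genes alone cannot change a gene's difference. The ranges thus rest on the other alternatives. Over all genes 135 were higher and 239 lower. A pseudocount of 0.1 gave 269 and 522, a minimum mean of 5 FPKM, with fewer genes tested, gave 67 and 128, and a threshold of 1.5-fold gave 585 and 1080. Correcting for GC content, on protein-coding genes, left 100 higher and 142 lower, against 115 and 199 for protein-coding genes without the correction. Over the lists, the 2 higher and 7 lower genes became 1 and 3 with the GC correction and 6 and 19 at 1.5-fold. Centring on the median, the TMM factor (30% of differences and 5% of levels trimmed), quantile normalization, no minimum and protein-coding genes alone kept these counts within 1.5 times. Fragments over the longest transcript, an alternative chosen after seeing the data, left the interval of MAGED2 above 1 and that of PRAME including 1. It could not change the intervals of MAGEF1 and MAGEB2, which have 1 transcript, and MAGED1 was left out of it. Depth limits PRAME, MAGED1 and the type I genes below 1 FPKM. No paired analysis was possible because there was 1 library in each group.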
